A study of Mus musculus with 12 samples.

Results

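The regions described here are 312 stretches of mouse chromatin, away from the ends of genes, that carried a peak of the histone mark H3K27ac in early and mid streak embryos and none at the 2 latest stages of gastrulation studied, where they also lacked a peak of H3K4me1. They were found by merging the H3K27ac peaks of 5 stages into 50341 regions, of which 35208 were distal, that is over 1 kb from both ends of every protein-coding gene. A region was kept if a peak overlapped it at ES and at MS, no peak overlapped it at OB or EHF, and no H3K4me1 peak overlapped it at OB or EHF. The members were thus chosen by the presence and absence of these peaks, and the values at ES, MS, OB and EHF for H3K27ac and at OB and EHF for H3K4me1 are given as a description. The peaks at Pre_PS, the H3K4me1 peaks before OB, the position and the sequence did not enter the choice, apart from the distance to gene ends. An H3K27ac peak at LS was neither required nor excluded, but the LS peaks were among those merged. They thus helped to set the bounds of the regions, and one that joined a region to an OB or EHF peak would have removed it.

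The cells came from embryos of C57BL/6 mice with no other genotype or treatment named in the labels, staged by morphology as pre-streak (Pre_PS, E6.0), early streak (ES, E6.0 and E6.5), mid streak (MS, E6.0 and E7.0), late streak (LS, E7.0 and E7.25), no allantoic bud (OB, E7.25 and E7.5) and early headfold (EHF, E7.5). Each stage and mark had 1 peak list from single cells profiled with CoBATCH, in which an antibody directs the transposase Tn5 to marked chromatin, so there were 12 lists and no replicates. Extraembryonic tissue was removed up to LS per the labels' protocols, which say nothing of it at the later stages; how many embryos or cells stand behind a list is not given in the sources used here. With 1 library per stage and mark there is no spread between replicates, and no difference between stages below was tested.

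H3K27ac is laid down by the acetyltransferases p300 and CBP at active enhancers and promoters. H3K4me1 is laid down by the methyltransferases MLL3 and MLL4 and marks enhancers whether they are active or not. When an enhancer is shut down, H3K27ac is usually removed while H3K4me1 may persist for some time as a trace of earlier use; the removal of both marks is called decommissioning. Gastrulation is the period in which the pluripotent epiblast gives rise to mesoderm, endoderm and ectoderm.

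Of the 312 regions, 2 overlapped a promoter window of the RefSeq table (250 bases before to 50 after a transcript start; 32851 windows, GRCm38.p6), and these 2 are shown because they are the regions whose DNA could be read. Both windows belong to lncRNA genes on chromosome 4. In the window of Gm13165 (minus strand, chr4:146239954-146240253) 224 bases lay in the lost region chr4:146239561-146240177, and in that of Gm42340 (plus strand, chr4:142641611-142641910) 20 bases lay in the lost region chr4:142641150-142641630. The sequences run 5′ to 3′ on the strand of the gene, with the bases inside the lost region in capitals.
Gm13165: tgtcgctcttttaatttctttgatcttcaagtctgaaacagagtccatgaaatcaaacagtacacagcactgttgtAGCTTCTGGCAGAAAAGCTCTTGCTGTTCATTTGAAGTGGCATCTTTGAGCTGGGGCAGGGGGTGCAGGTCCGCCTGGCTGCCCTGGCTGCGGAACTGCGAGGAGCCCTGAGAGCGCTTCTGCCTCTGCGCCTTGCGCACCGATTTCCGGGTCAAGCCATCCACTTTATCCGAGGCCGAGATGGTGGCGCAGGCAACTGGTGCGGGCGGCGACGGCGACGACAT
Gm42340: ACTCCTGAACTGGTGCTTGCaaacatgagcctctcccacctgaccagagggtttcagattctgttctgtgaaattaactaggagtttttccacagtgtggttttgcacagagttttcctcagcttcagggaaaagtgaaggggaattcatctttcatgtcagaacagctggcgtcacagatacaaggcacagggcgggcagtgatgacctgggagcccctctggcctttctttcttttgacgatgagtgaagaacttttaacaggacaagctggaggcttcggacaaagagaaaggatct
The Gm13165 window was 56.3% G and C with 18 CpG, and the Gm42340 window 48.0% with 4 CpG, against medians of 52.7% and 7.00 CpG over all promoter windows. At the Gm13165 region the authors' H3K27ac fold was 4.19 at ES, 3.99 at MS and 7.05 at LS, the highest LS fold among the 312 regions, and no peak was called at Pre_PS, OB or EHF. Its H3K4me1 fold was 3.15 at ES and 5.67 at LS, with no peak at MS. At Pre_PS it was 1.97, the lowest fold of that list, and the peak touched 11 bp of the region. The nearest protein-coding gene end was that of Zfp600, a zinc finger gene, at 40.8 kb. At the Gm42340 region the H3K27ac fold was 4.09 at ES, 4.0 at MS and 3.39 at LS, and the H3K4me1 fold was 5.41 at ES and 3.85 at LS. Its nearest gene end, that of Kazn, lay 402 kb away. There too no H3K4me1 peak was called at MS. Both regions thus had both marks at ES and at LS and neither at OB or EHF. Of all 12888 distal regions with a peak at ES and MS, 12.4% overlapped a promoter window, against 0.641% of the lost regions without late H3K4me1 and 1.12% of the lost regions with it. The choice of distal regions kept all of these sets over 1 kb from the outer ends of protein-coding genes.

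Among the 12888 distal regions with H3K27ac at ES and MS, 1112 (8.63%) had no peak at OB and EHF, and 312 (2.42%) also had no late H3K4me1. The 312 were 28.1% of the 1112 lost regions, while late H3K4me1 was missing at 3.90% of the 12888. Over all 35208 distal regions the 1112 were 3.16% and the 312 were 0.886%. The opposite course, no H3K27ac at ES and MS and peaks at OB and EHF, was seen at 1104 regions (3.14%), of which 149 (0.423% of the distal regions) had no H3K4me1 at ES or MS. The 800 lost regions that carried an H3K4me1 peak at OB, at EHF or at both (309 of them at both) are the nearest comparison for the 312.

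The depth of the libraries was read from the weakest peak of each list, where the authors' fold and p fix a pileup and a background (in fragments over a base). From ES to EHF the weakest H3K27ac peaks had a pileup of 3 over a background of 0.211 to 0.330; the backgrounds at OB and EHF, 0.230 and 0.289, lay above that of MS (0.211), and that of ES was 0.262. For H3K4me1 the weakest peaks had a pileup of 2 at ES and MS over 0.185 and 0.164, and of 3 at LS, OB and EHF over 0.347, 0.329 and 0.240. The Pre_PS libraries were far shallower, at 0.0499 and 0.0144, so a missing Pre_PS peak says little. As a check of the tissue, H3K27ac lay within 1 kb of an end of 18 to 19 of 24 epiblast genes and 23 to 24 of 26 Nodal and streak genes from ES to EHF. Over the same stages it lay at 22 to 23 of 24 neural ectoderm genes and 17 to 18 of 23 lateral plate and cardiac mesoderm genes. It also lay at 10 to 12 of 18 visceral endoderm genes, 10 of 12 parietal endoderm genes and 8 to 10 of 17 trophoblast genes, and at 5 to 8 of 18 adult tissue genes. These counts differed little between the stages, so they do not tell the tissues apart. Marks on fewer cells and a weaker mark in each cell cannot be told apart in these lists.

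The lost regions rested on weak and narrow peaks. Their median width was 612 bp (quartiles 495 and 805, highest 2077), against 648 bp for the lost regions with late H3K4me1. The authors' H3K27ac fold had a median of 4.04 at ES (lowest 3.17, highest 13.9) and 3.95 at MS (lowest 3.30, highest 7.09), which lay at the 17.9th and the 12th percentile of all peaks of these lists. In 168 regions (53.8%, 95% Wilson interval 48.3 to 59.3) both peaks were in the weakest 25% of their list, against 329 of 800 (41.1%) of the lost regions with late H3K4me1 and 13.1% of all distal regions with H3K27ac at ES and MS. That share was 27.6% when each list was reduced to an equal number of peaks, and 0 in the upper 50% of each list. Both settings take out weak peaks, so a fall of this share is built into them. At the background of the weakest peaks, the median folds correspond to a mean pileup of 4.10 fragments at ES and 3.78 at MS. A pileup of 4 has an exact Poisson 95% interval of 1.09 to 10.2, and the weakest peaks called at OB and EHF had a pileup of 3. This interval covers a single base; the total of fragments over a region is not given in the sources used here, and the part of depth in the missing late peaks was not tested.

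**Figure D1:**
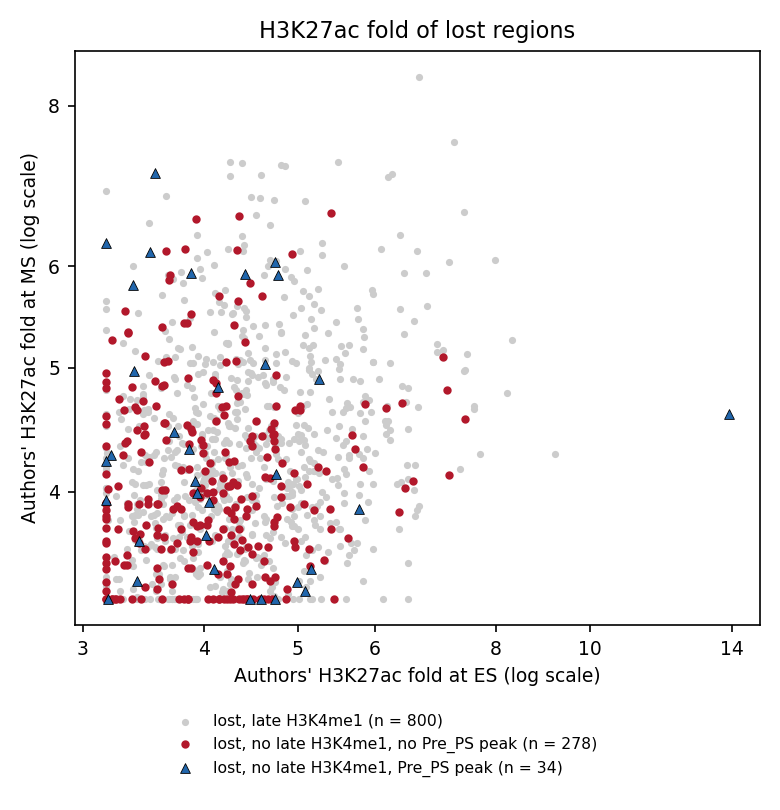
H3K27ac fold (the authors' ratio over background) at ES and MS, both on log axes, for each lost region; blue triangles are the 34 regions without late H3K4me1 that also had a Pre_PS peak, red points the other 278, grey points the 800 lost regions with late H3K4me1. The 312 regions have medians of 4.04 at ES and 3.95 at MS, many sit on the lowest folds of the lists (3.17 and 3.30), and the triangle farthest right, at 13.9, is the region near Gtpbp4.

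Both kinds of lost region made up less of the groups with stronger peaks. When the 12888 distal regions were ordered by the lower of their folds at ES and MS and cut into 10 equal groups, 147 of 1289 (11.4%, Wilson 9.78 to 13.3) of the weakest were lost without late H3K4me1, then 6.13%, 3.49%, 2.25% and 0.853%. The sixth group held 1 such region and the 4 strongest groups held 0 (0 of 1289 allows up to 0.233%, taken as 3 counts). The lost regions with late H3K4me1 went the same way, from 18.8% in the weakest group through 13.3%, 12.1%, 8.85%, 5.35% and 2.56% to 0.854%, 0.233%, 0 and 0. No lost region without late H3K4me1 was above a lower fold of 5.41, whereas 5714 (44.3%) of the distal regions were. In the upper 50% of each list by −log10 q the same choice found 23 regions, of which none overlapped the 312, and with an equal number of peaks from each list 366, which overlapped 153 of them.

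**Figure D2:**
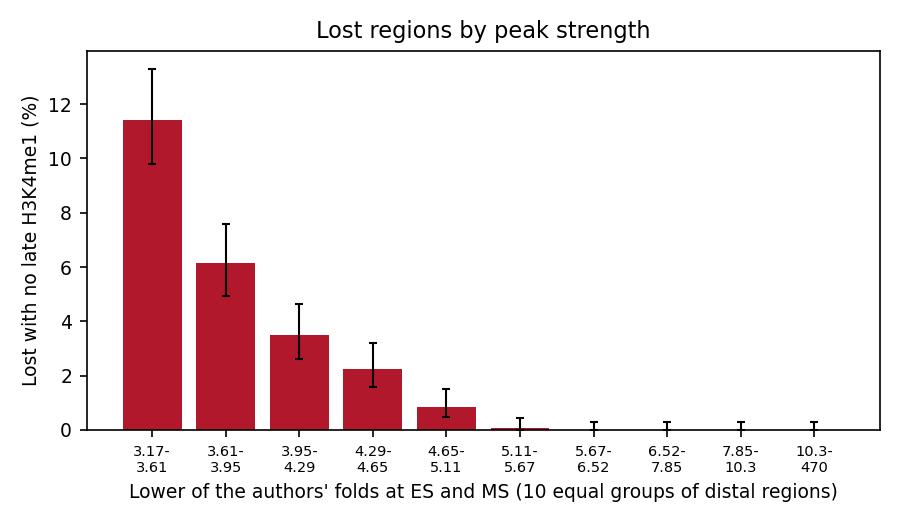
Percent of distal regions that lost H3K27ac and had no late H3K4me1 (bars, with 95% Wilson intervals as error bars) in 10 equal groups of regions ordered by the lower of the authors' folds at ES and MS, whose range is written under each bar. The bars go from 11.4% in the weakest group to 0 in the 4 strongest.

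At LS, the stage between the early and the late pair, 98 of the 312 regions (31.4%, Wilson 26.5 to 36.8) still had an H3K27ac peak and 214 did not. Of the lost regions with late H3K4me1 490 of 800 (61.2%, Wilson 57.8 to 64.6) had one, and of all distal regions with peaks at ES and MS 91.4%. The intervals of the 2 lost sets do not overlap, but they cover counting error only, and the regions of a set share their libraries. The difference was also seen between regions of like strength: in the weakest of the 10 groups 43 of 147 (29.3%) had an LS peak, against 133 of 242 (55.0%) of the lost regions with late H3K4me1 and 738 of 900 (82.0%) of the regions that were not lost. In the next group these shares were 25.3%, 59.3% and 85.8%. The lost sets were closer in the third group, at 46.7% (21 of 45) and 63.5%, against 90.8% of the regions not lost. In the fourth the shares were 41.4% (12 of 29), 64.0% and 92.8%, and in the fifth 18.2% (2 of 11), 63.8% and 96.7%. The LS peaks of the 98 regions were weak as well, with a median fold of 3.83 (lowest 3.01, highest 7.05). When every H3K27ac list was reduced to an equal number of peaks, which takes the most from the LS list, the share with an LS peak was 14.5%.

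**Figure D3:**
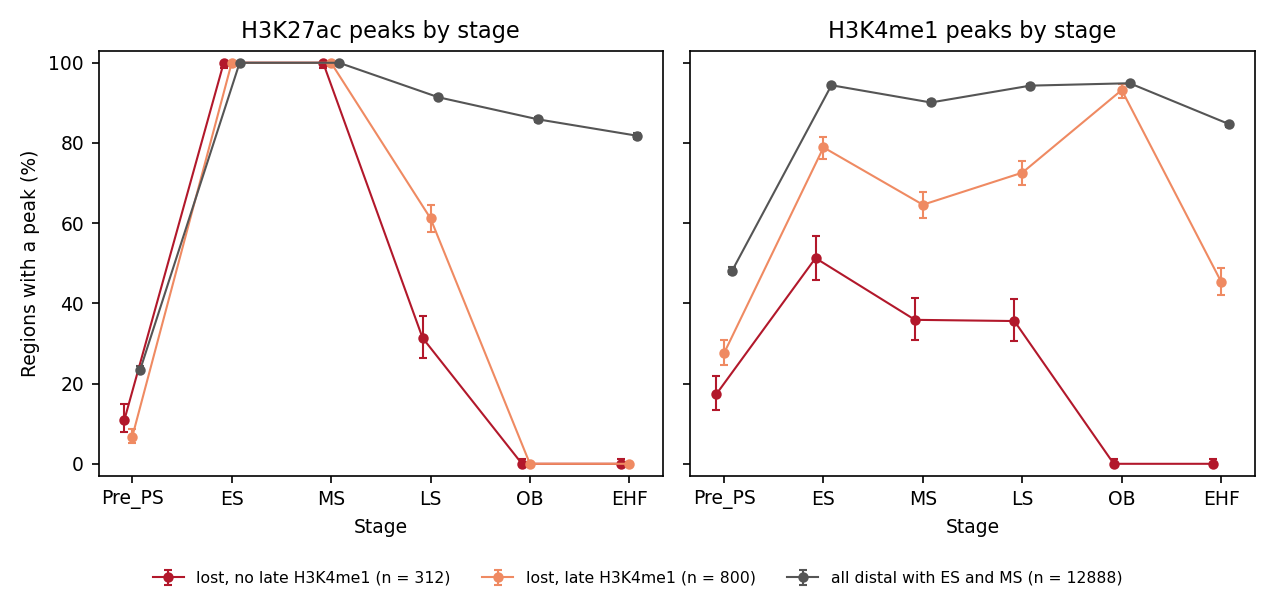
Percent of regions with an H3K27ac peak (left) and an H3K4me1 peak (right) at each of the 6 stages, for the lost regions without late H3K4me1, the lost regions with it and all distal regions with H3K27ac at ES and MS; error bars are 95% Wilson intervals. The choice of the lost regions set the values at ES, MS, OB and EHF on the left and OB and EHF on the right. The LS H3K27ac peaks entered it only through the merging. At LS the lost regions without late H3K4me1 stand at 31.4% and 35.6%.

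H3K4me1 peaks were called at many of the regions before OB. A peak of H3K4me1 overlapped 160 of the 312 (51.3%) at ES, 112 (35.9%) at MS and 111 (35.6%) at LS, and 203 (65.1%, Wilson 59.6 to 70.1) at ES or MS. These shares lay below those of the lost regions with late H3K4me1, at 78.9%, 64.6%, 72.6% and 89.8% (Wilson 87.5 to 91.7 for the last). They lay further below those of all distal regions with H3K27ac at ES and MS, at 94.4%, 90.1%, 94.3% and 97.5%. The late H3K4me1 that separates the lost sets is the same mark at a later stage, so the earlier H3K4me1 is not independent of it. Where H3K4me1 was called its median fold was 3.22 at ES, 3.14 at MS and 3.84 at LS, at the 25.7th, 22.2nd and 16.5th percentile of its lists. At the background of the weakest peaks these folds correspond to a mean pileup of 2.82, 2.65 and 4.18 fragments. The weakest H3K4me1 peaks called had a pileup of 2 at ES and MS, but of 3 at OB and EHF. The part of depth in the missing late H3K4me1 was not tested. When each list was reduced to an equal number of peaks the share with H3K4me1 at LS was 23.2%.

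The early H3K4me1 took every course. From ES to LS, 83 regions (26.6%) had no H3K4me1 peak, 58 had one at ES only, 36 at ES and MS, 33 at ES, MS and LS, 33 at ES and LS but not MS, 26 at LS only, 24 at MS only and 19 at MS and LS. Thus 33 of 312 (10.6%) had the mark at each stage up to LS and at neither later stage. Of the lost regions with late H3K4me1, 34 of 800 (4.25%) had no H3K4me1 from ES to LS, and of the stable distal regions (H3K27ac at each stage from ES to EHF) 10 of 9636 (0.104%). No H3K4me1 peak was called at any of the 6 stages at 82 of the 12888 distal regions at ES and MS (0.636%). Of these, 70 were lost regions without late H3K4me1 (22.4% of the 312), where the choice had already set OB and EHF. At LS itself 47 regions had both marks, 51 H3K27ac alone, 64 H3K4me1 alone and 150 (48.1%) neither. Of the 51 regions with H3K27ac alone, 37 had H3K4me1 at ES or MS and 14 had not. Among the regions with H3K27ac at LS 48.0% had H3K4me1 there (Wilson 38.3 to 57.7), and among those without 29.9% (Wilson 24.2 to 36.4). The comparison sets had the same order. These shares were 79.0% and 62.6% for the lost regions with late H3K4me1. For all distal regions at ES and MS they were 97.2% and 63.4%.

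**Figure D4:**
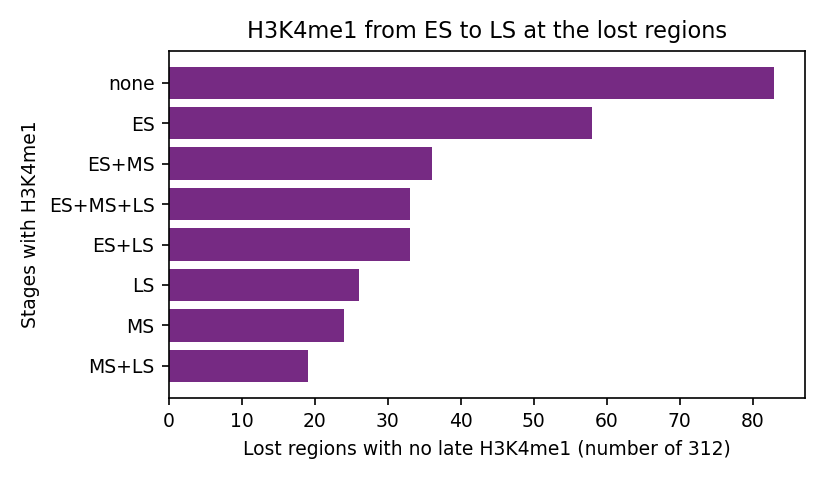
Number of the 312 lost regions without late H3K4me1 (bar length) by the stages among ES, MS and LS at which an H3K4me1 peak overlapped them. The longest bars are those with no peak at these stages (83) and with a peak at ES only (58).

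No late peak of either mark lay within 1 kb of a region, where the choice itself excluded only overlapping peaks. Late H3K27ac was also missing within 1 kb at 797 of the 800 lost regions with late H3K4me1. The nearest H3K4me1 peak at OB or EHF lay a median of 57.3 kb from a region (lowest 1.71 kb) and the nearest late H3K27ac peak 65.8 kb (lowest 1.64 kb). For the lost regions with late H3K4me1 the nearest late H3K27ac peak lay at a median of 25.9 kb.

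The regions lay far from genes. The nearest end of a protein-coding gene was a median of 70.5 kb away (quartiles 22.2 and 255 kb, highest 1941 kb), against 30.2 kb for the lost regions with late H3K4me1. Of the 312, 130 (41.7%, Wilson 36.3 to 47.2) were over 100 kb from every gene end, against 27.2% of the lost regions with late H3K4me1 (Wilson 24.3 to 30.4), 11.2% of all distal regions with H3K27ac at ES and MS and 6.94% of the stable ones; 104 of the 130 were outside genes. Within 10 kb of a gene end lay 41 regions (13.1%), against 24.5%, 43.1% and 48.3%. In the weakest of the 10 groups by fold the median distance was 82.4 kb for these regions, 36.2 kb for the lost regions with late H3K4me1 and 22.7 kb for the regions not lost. In the next group these were 69.1, 27.4 and 17.0 kb, and in the third 39.1, 36.4 and 14.6 kb, so there the lost sets lay at nearly the same distance. In the fourth they were 72.3, 37.8 and 13.5 kb, with 29 lost regions without late H3K4me1. In the fifth, with 11 such regions, they were 65.0, 15.0 and 13.0 kb. The sixth held 1 such region, at 7.87 kb, against 43.4 and 11.5 kb. Inside a protein-coding gene lay 117 (37.5%, Wilson 32.3 to 43.0), a share whose interval overlaps that of the lost regions with late H3K4me1 (41.2%, Wilson 37.9 to 44.7) and is below that of all distal regions at ES and MS (62.7%). The gene table used holds no exons, so introns and exons could not be separated. A lncRNA gene was overlapped by 21 regions (6.73%, against 13.6% of all distal regions at ES and MS) and a pseudogene by 15 (4.81%, against 3.62%).

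**Figure D5:**
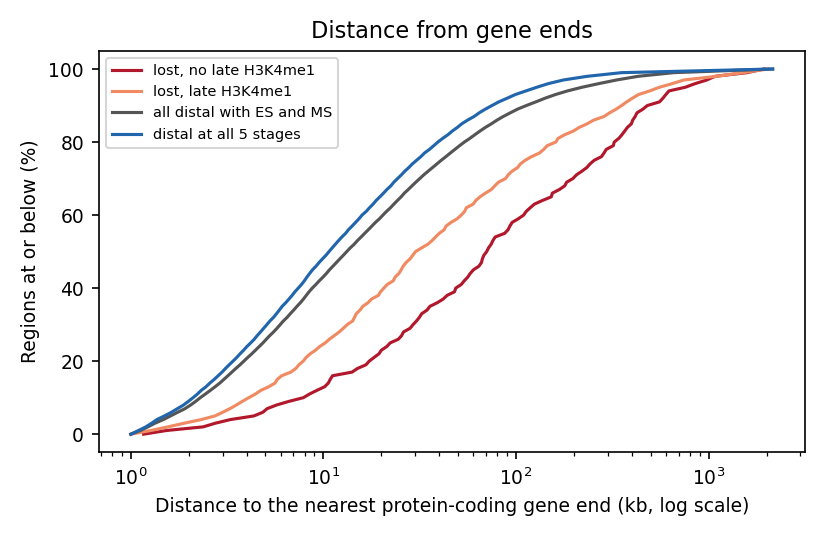
Cumulative percent of regions by distance to the nearest protein-coding gene end (kb, log axis) for 4 sets of distal regions. The curve of the lost regions without late H3K4me1 lies right of the others at the median, 70.5 kb, and that of the regions with H3K27ac at all 5 stages farthest left.

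Chromosome X held 20 of the 312, which is 7.78% of its 257 distal regions with H3K27ac at ES and MS, the highest share of any chromosome; the autosomes ranged from 1.27% on chromosomes 11 and 16 to 5.41% on chromosome 3, with 2.42% over all. Of the lost regions with late H3K4me1 32 of 800 (4.0%) were on X, of these 312 6.41% (Wilson 4.19 to 9.69). The regions were scattered: only 2 pairs lay within 50 kb of one another, at Cfhr3 on chromosome 1 and at Igf2bp1 on chromosome 11, and no gene had 3 or more of them within 100 kb. At any distance 1 gene, Pcdh9, was nearest to 3 regions, which lay 35.8, 417 and 949 kb from its ends.

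Within 100 kb of a gene end lay 182 regions, at 180 genes. Over 16 lists of 285 genes (284 found), 2 of the 182 (1.10%, Wilson 0.302 to 3.92) were nearest to a listed gene, against 16 of 582 lost regions with late H3K4me1 (2.75%, Wilson 1.70 to 4.42) and 389 of 11444 distal regions at ES and MS (3.40%, Wilson 3.08 to 3.75), intervals that overlap. At any distance 5 of the 312 were (1.60%, Wilson 0.686 to 3.70), against 2.38% and 3.30%. The lists of epiblast and pluripotency genes, of Nodal signalling and the streak, of nascent mesoderm, of lateral plate and cardiac mesoderm, of endoderm and node, of surface ectoderm and of Hox and Cdx genes each had 0 of the 182; the 3 lists of extraembryonic cells, germ cells, the naive and formative list and both reference lists also had 0. A count of 0 of 182 allows a share of up to 1.65% (3 counts), and the epiblast list held 0.428% of the distal regions at ES and MS, so a lower share at the lost regions was not detectable at this number.

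One listed neighbour was Lhx2, a LIM homeodomain transcription factor of the forebrain, with a lost region 19.8 kb from its end (chromosome 2, 38318954 to 38319461, mm10). There the H3K27ac fold was 4.80 at ES and 4.04 at MS with no peak at the other 4 stages, and the H3K4me1 fold was 3.88 at ES and 4.91 at LS with no peak at MS. The other was Ncor1, which encodes a corepressor that recruits histone deacetylase, with a lost region inside the gene (chromosome 11, 62448981 to 62449415). Its H3K27ac fold was 4.74 at ES and 4.32 at MS, and H3K4me1 was not called there at any stage. Beyond 100 kb the listed neighbours were Eomes, a T-box factor of the streak (125 kb; 4.35 at ES and 6.57 at MS), Pax3, a paired-box factor of the neural plate border (125 kb; 3.34, 3.89 and 3.84 at LS), and Pou3f1, a POU factor of the epiblast (287 kb; 4.66 and 3.30). Pou3f2 (53.6 kb), Shox2 (69.1 kb), Prdm13 (87.7 kb) and Scrt2 (29.1 kb), transcription factor genes in none of the lists, were also nearest to 1 region each and were picked out after their values were seen.

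The 10 strongest regions, by the lower of both early folds, had nearest genes of unrelated kinds, and 5 of them were inside a protein-coding gene. The strongest was inside Casd1, a sialic acid O-acetyltransferase gene (chromosome 6, 4608784 to 4609941), with an H3K27ac fold of 5.41 at ES and 6.60 at MS, none at the other stages and no H3K4me1 at any stage. Inside Ptprn2, which encodes a phosphatase-like protein of secretory vesicles (chromosome 12, 116705534 to 116706207), H3K27ac stood at 7.05 and 5.10 at ES and MS and H3K4me1 at 3.31 at MS alone. Another region lay inside Ctnna2, the neuronal alpha-catenin gene, and 5.75 kb from an end of Lrrtm1, a synaptic adhesion gene. Its H3K27ac fold was 4.93 at ES, 6.13 at MS and 4.04 at LS. Its H3K4me1 fold was 4.79 at ES, 2.88 at MS and, at Pre_PS, 1.97, the lowest fold of that list. These folds come from separate lists and do not measure a change between stages. Of the 10 regions this was the only one with H3K27ac at LS.

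Next in strength were regions 93.5 kb from Nab1, a corepressor of EGR factors (H3K27ac 7.12 and 4.80 at ES and MS, H3K4me1 4.57 and 3.13), and inside Frmd4a, a scaffold gene of cell polarity (5.86 and 4.68, H3K4me1 4.52 and 3.66). Both had H3K4me1 at both early stages and neither mark from LS on. A region 1.51 kb from Itgae, the integrin alpha E gene, held H3K27ac at 6.40 and 4.69 and H3K4me1 at LS alone (3.54). A region inside Cfhr3, a gene related to complement factor H, held 4.75 and 4.93 and H3K4me1 at ES alone (2.72).

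The other 3 of the 10 also carried H3K27ac at Pre_PS and were wide. The region 3.02 kb from Ppp1cc, a catalytic subunit of protein phosphatase 1 (chromosome 5, 122178298 to 122180289, 1992 bp), held 5.68 at Pre_PS, 4.74 at ES and 6.04 at MS, and no H3K4me1 at any stage. The region 5.03 kb from Vmn1r56, a vomeronasal receptor gene (1702 bp), held 2.86, 5.26 and 4.90, with H3K4me1 at Pre_PS (1.97) and ES (4.09). Its Pre_PS folds of both marks were the lowest of their lists. The region 350 kb from Neto1, an auxiliary subunit of glutamate receptors (1799 bp), held 3.95, 4.77 and 5.91, with H3K4me1 at LS alone (3.52).

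In all, 34 of the 312 (10.9%, Wilson 7.90 to 14.8) had H3K27ac at Pre_PS, against 54 of 800 (6.75%, Wilson 5.21 to 8.70) of the lost regions with late H3K4me1, intervals that overlap, and 23.5% of all distal regions at ES and MS. These 34 had a median width of 1256 bp, against 586 bp for the other 278, and 19 of 34 (55.9%) were over 1 kb wide against 12.6%. Regions with a Pre_PS peak were wider in the comparison sets too. The medians were 763 against 642 bp for the lost regions with late H3K4me1. For all distal regions at ES and MS they were 1470 against 869 bp. Width did not choose the regions, but wide regions offer more bases to a Pre_PS peak. The lower fold of the 34 was not higher than that of the other 278, with a median of 3.54 against 3.64. H3K4me1 was absent from ES to LS at 17 of 34 (50%) and at 66 of 278 (23.7%) of the others, and 6 of the 34 had H3K27ac at LS. In 11 of the 34 (32.4%) the Pre_PS peak was of the weakest kind, with a pileup of 2. Among all distal regions at ES and MS with a Pre_PS peak this was so in 408 of 3031 (13.5%).

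Of the 18 regions over 1.5 kb wide, 10 had H3K27ac at Pre_PS (55.6%), against 9 of 58 (15.5%) of such lost regions with late H3K4me1 and 39.3% of such distal regions at ES and MS. H3K4me1 was missing from ES to LS at 6 of these 18 (33.3%), at 1 of the 58 (1.72%) and at 10 of 3714 (0.269%) wide distal regions, and 5 of the 6 are among the 10. The 5 widest were inside Igf2bp1, an RNA-binding protein gene of embryonic tissue (2077 bp), then near Cenpw, a centromere protein gene (1995 bp), Ppp1cc (1992 bp) and Gm4988 on chromosome X (1959 bp), and inside Skint11 (1941 bp). The Igf2bp1 region had both marks at ES, MS and LS (H3K27ac 3.64, 3.69 and 4.45, H3K4me1 2.75, 2.58 and 4.28), and its nearest late peaks of H3K27ac and H3K4me1 lay 1.64 and 1.71 kb away, the closest of all 312. The Gm4988 region held H3K27ac at each stage up to LS (4.16, 3.86, 4.32 and 3.83) with no H3K4me1 at any stage.

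The highest single value among the 312 belonged to a region 15.6 kb from Gtpbp4, which encodes a GTPase of ribosome assembly, and overlapping the lncRNA gene Gm36264 (chromosome 13, 9011688 to 9012186). Its H3K27ac fold was 10.8 at Pre_PS, at percentile 99.8 of that list, 13.9 at ES, at percentile 85.7, and 4.60 at MS, at percentile 24.0, and no peak was called from LS on. H3K4me1 was not called there at any stage.

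The other regions with a Pre_PS peak among the 10 strongest of that kind had Pre_PS folds of 2.86 to 3.68. Some lay inside Snx29, Clasp1 and Wdr49. The rest lay outside genes and far from the nearest gene end, that of Cntnap5a (579 kb), Tenm3 (1823 kb) or Gm52433 (235 kb). The region inside Snx29, a sorting nexin gene, kept H3K27ac to LS (2.91, 4.41, 5.92 and 4.25 from Pre_PS to LS) and had H3K4me1 at 5.56, 4.42 and 6.66 from ES to LS. The region inside Clasp1, a microtubule-binding protein gene, held H3K27ac at 2.86, 4.75 and 4.13 from Pre_PS to MS and no H3K4me1.

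Chemosensory receptors were the neighbours of several regions, a family looked at after the values were seen. Olfactory or vomeronasal receptor genes were nearest within 100 kb to 8 of the 312 (2.56%, Wilson 1.30 to 4.98), 12 of the 800 lost regions with late H3K4me1 (1.5%, Wilson 0.860 to 2.60) and 0.628% of all distal regions at ES and MS. Besides Vmn1r56 these were Olfr380, Olfr340, Vmn1r77, Vmn1r238, Olfr691, Olfr714 and Olfr478; of the 8 only the region near Olfr691 had H3K27ac at LS (3.34) and none had H3K4me1 at LS. Cadherin or protocadherin genes, which encode adhesion proteins, were nearest to 5 (1.60%, Wilson 0.686 to 3.70, against 1.00%, Wilson 0.508 to 1.96, and 0.535%), namely Cdh10, Pcdhb14, Pcdh7, Pcdh17 and Pcdh9. Zinc finger genes named Zfp were nearest to 3 (0.962%, against 1.00% and 1.68%).

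At the 1 kb limit, the regions just inside the choice lay 1.17 kb from an end of Pcdhb14, 1.21 kb from Me1 and 1.28 kb from Atf7ip, with a lower H3K27ac fold of 4.20, 3.37 and 3.44. Regions with the same peaks but just too close to a gene end lay 0.614 kb from Prelid2, 0.267 kb from Gm15262 and 0.098 kb from Krt81, with a lower fold of 3.5, 4.21 and 3.46.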

How the data were processed

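Per the submitters' processing notes, Bowtie2, Picard, MACS2 and deepTools were run by the authors on mm10; neither versions and settings nor the pooling of cells could be read from the labels. Each stage and mark has 1 deposited broad peak list, 12 in all. The deposited fold, the authors' ratio of fragments to local background averaged over a peak, served to describe and order peaks inside 1 list. The authors' peak caller also gave −log10 p, from which the depth was read here, and −log10 q, by which peaks were ordered in 2 alternatives. The score column deposited by the authors repeats −log10 q in whole numbers and was left aside.

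Peaks on chromosomes 1 to 19 and X were kept, and 18 to 60 peaks per list on other sequences were left out. Overlapping or touching H3K27ac peaks of ES to EHF were merged; a peak was present where it overlapped a region by at least 1 bp, and the highest fold among such peaks was taken. Gene ends came from 21631 protein-coding genes in RefSeq's annotation of GRCm38.p6, the assembly behind mm10. The depth was solved from fold = (pileup + 1)/(background + 1) and the Poisson p of the weakest peak, trying pileups up to 20 and accepting a difference of 0.001 in −log10 p; every list had a single solution. The Wilson intervals of shares (95%) take in counting error alone. Tested on simulated data, 165 of 165 planted lost regions without late H3K4me1 were found. Analyses used Python 3.11.15, pandas 2.3.3, numpy 2.4.6 and scipy 1.17.1.

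The regions and gene lists were chosen with earlier results of these data known. Named were the 10 strongest and 5 widest regions, the 3 on either side of the 1 kb limit, up to 10 with a Pre_PS peak, those nearest to a listed gene, genes with 3 or more regions and groups within 50 kb; the regions at the RefSeq promoter windows, the chemosensory, cadherin and Zfp neighbours and the comparison by width were added after the values were seen. A genome sequence was not used here, so other regions are shown without sequence.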

Additional observations from a re-analysis of the deposited data

How the results depend on the processing

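Each of 7 values, namely the number of lost regions without late H3K4me1 and their shares with LS H3K27ac, Pre_PS H3K27ac, H3K4me1 at ES or MS, H3K4me1 at LS, a place inside a gene and both peaks in the weakest 25% of their list, was recomputed under 7 alternatives; of the 49 values, 38 stayed within 1.5 times the count or inside the 95% Wilson interval of the share, and 11 moved. In the upper 50% of each list by −log10 q the number fell from 312 to 23, none of them overlapping the 312, and the shares were 21.7% with Pre_PS H3K27ac, 73.9% with H3K4me1 at ES or MS, 47.8% with H3K4me1 at LS, 43.5% inside a gene and 0 in the weakest 25%. When each list was reduced to an equal number of peaks (30072 for H3K27ac and 35646 for H3K4me1) there were 366 regions, which overlapped only 153 (49.0%) of the 312, and the shares were 14.5% with LS H3K27ac, 57.7% with H3K4me1 at ES or MS, 23.2% with H3K4me1 at LS and 27.6% in the weakest 25%. Without the weakest peaks there were 280 regions, overlapping 249 (79.8%) of the 312, and 7.5% of the 280 had Pre_PS H3K27ac. The cause of these shifts was not tested beyond the removal of peaks that each setting makes. For the share in the weakest 25%, that removal has a fall built in. A cover of at least 20%, a distance of 5 kb, a 1 kb margin for late H3K4me1 and merging with Pre_PS gave 328, 291, 312 and 312 regions. The median H3K27ac pileup of the lost regions was 4.10 at ES and 3.78 at MS, and the weakest H3K27ac peaks called at these stages and later had 3. The part of depth in the missing late peaks was not tested. No paired analysis was possible because each stage and mark had 1 library.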

Other observations

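When the peak lists were reduced to their upper 50% by −log10 q, 23 distal regions had H3K27ac at ES and MS, none at OB and EHF and no late H3K4me1; in the whole lists a late H3K27ac peak overlapped 20 of the 23, a late H3K4me1 peak 22 and both 19, so none was without a late peak. The one with the highest folds lay 8.91 kb from Zfp945 (chromosome 17, 22876221 to 22878197), with an H3K27ac fold of 12.5 at ES and 14.3 at MS. The next highest at ES lay near Nsf, a vesicle fusion ATPase gene (9.22 and 7.00), and Cr2, a complement receptor gene (9.03 and 7.17). These were named after their values were seen.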
